A study of Sus scrofa with 28 samples.

Results

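The infarct zone and the remote zone of the left ventricle were compared in 4 pigs that had received recombinant human agrin (rhAgrin), 28 days after ischaemia and reperfusion. The comparison took 8 of the 28 libraries of the series, the infarct and the remote library of pigs 519, 522, 544 and 548, which were chosen by their labels alone and paired within each animal. All animals were wild-type Landrace pigs of both sexes, 3 months old, in which a balloon had closed the left anterior descending coronary artery for 60 min. At reperfusion, rhAgrin was given into the coronary artery at 33 µg per kg, or the vehicle alone in the pigs labelled PBS. For contrast, the report uses 3 PBS pigs at day 28 (523, 536 and 547, 6 libraries) and 4 rhAgrin pigs at day 3 (570, 572, 576 and 577, 8 libraries), all with both zones of the same heart. Every pig had the occlusion, so the remote zone of an injured heart was the only reference tissue, and different animals were used at each day. The tissue came from archived sections whose zone had been set by tetrazolium staining. The study's methods describe infarct sections as stained and remote sections as unstained, whereas the dye colours living muscle, and the share of scar in a section was not given in the sources used here.

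Agrin is a large proteoglycan of the extracellular matrix. In the heart it binds the dystroglycan complex on cardiomyocytes, a link between matrix and cytoskeleton, and in the newborn mouse heart this binding is known to release the transcriptional coactivator YAP, which acts with TEAD transcription factors. In an untreated infarct, fibroblasts become activated and lay down collagen, macrophages clear dead muscle and shape the scar, and cardiomyocyte transcripts are lost from the infarct zone.

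RNA was polyadenylated RNA, and counts were of reads left after removal of duplicates by unique molecular identifiers. The 8 libraries held 22703254 to 34767278 counts in the infarct zone and 23864530 to 31855060 counts in the remote zone, in a series that ran from 15383495 to 34767278 counts. Levels below are on the counts-per-million scale (CPM) after TMM scaling of the libraries, and differences are log2 infarct minus remote. A fitted difference is given with its standard error from a fit of all 28 libraries. That fit gives each gene a spread shared by all groups, so the error is not the spread of the 4 pigs alone. A count of 3, the limit used for detection, was worth 0.093 to 0.161 CPM, and such limits cover counting error only. Heart muscle markers were high in both zones. MYH7, the main ventricular myosin, lay between 29940 and 36530 CPM in the infarct libraries and between 33760 and 37130 CPM in the remote ones. Skeletal muscle TNNT3 had at most 7 counts, the neutrophil protein gene S100A8 at most 3 and the B cell gene MS4A1 at most 7, while TTN, NPPA, S100A9, MYL7, MYH1 and MYH2 were not analysed here. In 13 of 14 pigs the Y-linked genes gave the same sex in both zones, including 4 of 4 in the rhAgrin day 28 group. The exception was pig 573, a PBS pig at day 3 that enters only the shared estimate of spread.

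No gene passed the test of infarct against remote zone. Of 15409 genes tested with edgeR, 0 passed the adjusted p of 0.05 (0% of genes), and 0 passed with the further demand of a 2-fold difference and a count over 30 (0%). The smallest adjusted p was 0.357, shared by PTK7 and NR2F1. At an unadjusted p under 0.05 there were 597 genes (3.87%), fewer than the 770 that evenly spread p-values would give. Of these, 342 were higher (2.22%) and 255 lower (1.65%) in the infarct zone. An edgeR fit of the 8 libraries alone, without the spread of other groups, had 1340 of 13893 genes under that limit. That is more than evenly spread p-values would give, but again 0 genes passed, with a smallest adjusted p of 0.101. DESeq2 on the same counts also called 0 genes at 2-fold and had 536 at an unadjusted p under 0.05, but 4 passed its adjusted p alone: PTK7 (0.00632), and SPON1, NR2F1 and SRPX (0.00777 each). The same edgeR fit called 860 genes higher (5.58%) and 347 lower (2.25%) in the infarct zone of the PBS pigs at day 28. It called 2975 higher (19.3%) and 2396 lower (15.5%) in the rhAgrin pigs at day 3.

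**Figure D1:**
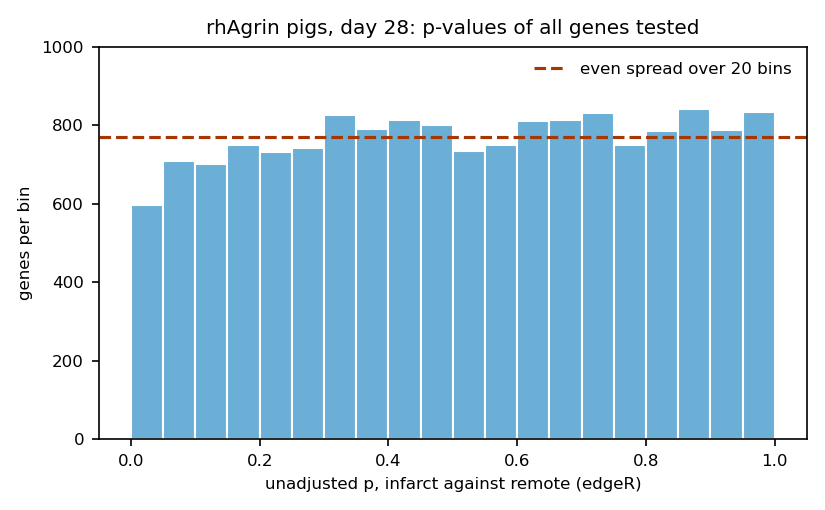
Number of genes per bin of unadjusted p (edgeR, infarct against remote, rhAgrin pigs at day 28) over 15409 genes, with the dashed line at an even spread over 20 bins. The first bin holds 597 genes and lies below the line at 770.

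Pig 519 stood apart from the other 3 animals. Across genes, which are not independent replicates, its zone differences correlated with those of pigs 522, 544 and 548 at r = -0.19, -0.16 and 0.01, whereas those 3 pigs correlated with each other at 0.23 to 0.31. The SD of the differences was alike in the 4 pigs, at 0.44 to 0.46, against 1.09, 0.64 and 0.62 in the PBS pigs. Pig 519 was the only rhAgrin pig at day 28 whose mitochondrially encoded share of counts was higher in the infarct than in the remote zone. Without it the fit again called 0 genes, and 848 had an unadjusted p under 0.05. The difference of COL1A1 was then 0.91, against 0.75 without pig 548, and that of CTHRC1 0.78 against 0.25. Without pig 548, which held the highest collagen levels, 225 genes had an unadjusted p under 0.05.

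How large a difference the 4 pairs could have hidden was read from the intervals of the shared fit, whose spread also comes from the other groups. The median standard error was 0.17 on the log2 scale. For 12371 genes (80.3%) the 95% interval lay inside a 2-fold difference in both directions, and for 3038 genes (19.7%) it reached past 2-fold, so a difference past 2-fold was not excluded for them. The estimate itself exceeded 2-fold for 310 genes (2.01%), of which 263 had a mean level under 1 CPM. All 4 infarct levels lay above all 4 remote levels for 143 genes (0.928%) and below them for 211 (1.37%). Within single pigs, 1266 genes (8.22%) were higher in the infarct zone of 4 of 4 pigs and 1513 (9.82%) were lower in 4 of 4. These shares are the background for every list below.

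The fibrillar collagen genes COL1A1, COL1A2 and COL3A1, which encode the main proteins of scar, were higher in the infarct zone of 4 of 4 pigs but did not pass the test. COL1A1, a chain of type I collagen, stood at 1773, 2311, 1641 and 5297 CPM in the infarct zone of pigs 519, 522, 544 and 548, against 1185, 1081, 1104 and 2526 CPM in the remote zone. The fitted difference of COL1A1 was 0.83 ± 0.30 (95% interval 0.18 to 1.48, unadjusted p = 0.0164). Each infarct level of COL1A1 exceeded the remote level of the same pig, but the remote level of pig 548 lay above the infarct level of the other 3 pigs. COL3A1, the type III chain found with type I in scar, gave 3745, 4447, 3504 and 8625 CPM in the infarct zone and 2750, 3193, 2712 and 4603 CPM in the remote zone. Its difference was 0.55 ± 0.19, and pig 548 was again the highest in both zones. Of 37 collagen genes tested, 13 (35.1%, against 8.22% of all genes) were higher in 4 of 4 pigs, 0 lower in 4 of 4, and 0 passed the adjusted p. The median difference of the collagens was 0.39, against -0.005 for all genes, with pig medians of 0.19, 0.35, 0.17 and 0.62. In the PBS pigs 523, 536 and 547 the same medians were 1.79, 1.17 and 0.76, each above that of every rhAgrin pig. In bulk tissue, more fibroblasts and more collagen RNA per fibroblast cannot be told apart.

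At low levels the rarer chains COL9A3 and COL6A5 showed the same order, whereas COL24A1 did so in 3 of 4 pigs. The COL24A1 difference was 0.53 ± 0.51, and -0.09 without pig 548. COL9A3, a chain of the cartilage collagen type IX, was at 0.749, 2.39, 0.572 and 4.37 CPM in the infarct zone and 0.630, 0.546, 0.469 and 1.44 CPM in the remote zone. Its difference was 1.29 ± 0.44, and nearly all of it lay in pigs 522 and 548. The type VI chain COL6A5 had a difference of 1.46 ± 0.56, also higher in 4 of 4 pigs. Among the 31 genes for collagen folding, crosslinking and processing, 11 were higher in 4 of 4 pigs and 0 lower, with a median of 0.15. LOX, the enzyme that begins the crosslinking of collagen, was higher in 3 of 4 pigs and had a difference of 0.23 ± 0.24.

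Genes of activated fibroblasts showed uneven gaps across the pigs. FN1 encodes fibronectin, laid down early in a healing wound. It stood at 169.8, 271, 191.7 and 690.4 CPM in the infarct zone and 159, 147, 188 and 363 CPM in the remote zone, a difference of 0.48 ± 0.26. Pigs 519 and 544 had almost the same FN1 level in both zones. POSTN, the matricellular protein periostin of activated fibroblasts, gave 81.9, 117, 62.1 and 173 CPM in the infarct zone and 74.5, 69.3, 54.7 and 88.4 CPM in the remote zone. CTHRC1, a secreted protein that marks matrix-producing fibroblasts after infarction in the mouse, gave 3.64, 7.85, 2.0 and 12.3 CPM in the infarct zone and 4.41, 3.86, 2.30 and 5.33 CPM in the remote zone. CTHRC1 was thus higher in pigs 522 and 548 and lower in pigs 519 and 544, with a difference of 0.53 ± 0.30. The 37 matricellular and activated fibroblast genes had pig medians of -0.07, 0.76, 0.14 and 0.61, with 9 higher and 1 (NOX4, an oxidase) lower in 4 of 4 pigs. In the PBS pigs these medians were 2.97, 1.98 and 1.03.

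**Figure D2:**
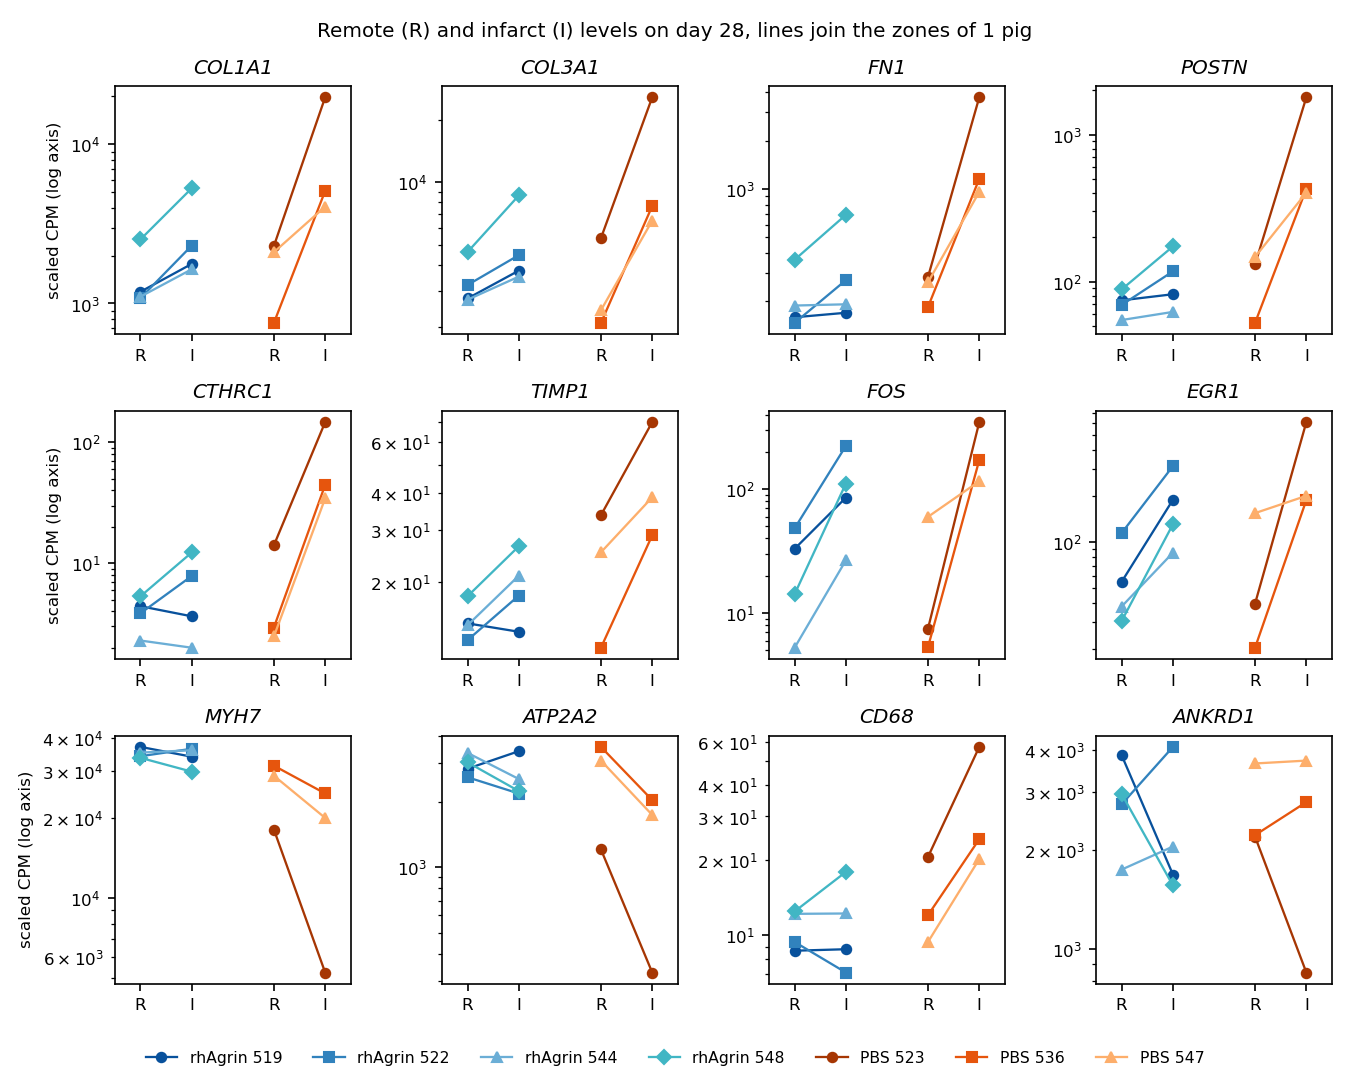
Scaled CPM on log axes in the remote (R) and infarct (I) zone at day 28 for chosen genes, with a line joining the zones of each rhAgrin or PBS pig. COL1A1 lies between 1641 and 5297 CPM in the infarct zone of the rhAgrin pigs, and MYH7 between 29940 and 36530 CPM.

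No gene of the other matrix groups passed the test either. TIMP1, an inhibitor of metalloproteases, stood at 13.5, 17.9, 21.0 and 26.4 CPM in the infarct zone and 14.4, 12.6, 14.2 and 17.8 CPM in the remote zone. It was higher in 3 of 4 pigs, with a difference of 0.39 ± 0.28. COMP, a cartilage matrix protein, had 0 counts in 3 of the 8 libraries and at most 2.98 CPM, and its fitted difference of 1.33 ± 2.58 was not interpretable as a fold. Of 32 scar and cartilage-like matrix genes, 7 were higher in 4 of 4 pigs and 0 lower, with a median of 0.52. CPXM1, a secreted carboxypeptidase-like protein of that list, had a difference of 0.71 ± 0.20. The 30 metalloproteases and inhibitors had a median of 0.07 (5 higher, 4 lower in 4 of 4), the 19 proteoglycans 0.27 (5 and 1) and the 19 elastic fibre genes 0.25 (2 and 1). Genes of resting fibroblasts, 18 in number, had a median of 0.17, with 4 higher and 3 lower in 4 of 4 pigs. DCN, the collagen-binding proteoglycan decorin made by resting fibroblasts, gave 646, 632, 611 and 989 CPM in the infarct zone and 578, 632, 521 and 619 CPM in the remote zone. Its level was equal in both zones of pig 522 and the difference was 0.27 ± 0.15. LUM, the related proteoglycan lumican, had a difference of 0.29 ± 0.25.

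The genes with the smallest unadjusted p, chosen after their values were seen, included secreted and receptor proteins of mesenchymal cells. PTK7, a pseudokinase coreceptor of Wnt signalling, stood at 7.92, 11.5, 9.68 and 17.9 CPM in the infarct zone and 5.34, 7.02, 5.58 and 9.22 CPM in the remote zone. Its difference of 0.76 ± 0.13 had the smallest unadjusted p of the tested genes, 3.23e-05, with an adjusted p of 0.357. NR2F1, a nuclear receptor, had a difference of 0.98 ± 0.17 with infarct levels of 2.89 to 7.84 CPM. SPON1 encodes spondin, a secreted matrix protein. It gave 133, 109.7, 139 and 201 CPM in the infarct zone and 88.0, 66.5, 75.5 and 124 CPM in the remote zone, a difference of 0.72 ± 0.14. TCF21, a transcription factor of epicardial cells and cardiac fibroblasts, gave 13.2, 16.9, 16.6 and 21.4 CPM against 10.4, 10, 10.7 and 10.7 CPM. All 4 infarct levels of TCF21 lay above all 4 remote levels, with a difference of 0.68 ± 0.16 and an unadjusted p of 0.000638. The receptor ROR2, which binds WNT5A, had a difference of 1.60 ± 0.39, led by pig 522. SFRP2, a secreted modulator of Wnt signalling, was at 0.0535, 14.2, 1.88 and 27.6 CPM in the infarct zone and 0.126, 0.146, 0.141 and 0.918 CPM in the remote zone. The level of SFRP2 was thus within the detection limit in both zones of pig 519 and high in the infarct zone of pigs 522 and 548, so its fitted difference of 4.94 ± 1.12 belongs to 3 pigs. On the lower side stood TBX3, a repressor of transcription in the conduction system, with a difference of -0.65 ± 0.15 and infarct levels of 7.30 to 13.8 CPM against 10.6 to 20 CPM. PPM1L, a protein phosphatase, had all 4 infarct levels below all 4 remote levels and a difference of -0.63 ± 0.15. The Wnt list of 38 genes as a whole had a median of 0.10, with 6 higher and 3 lower in 4 of 4 pigs. The 46 genes of TGF-beta and BMP signalling had a median of 0.06, with 6 higher and 3 lower.

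Immediate early genes, transcription factors that respond to stress within minutes, included the genes with the highest differences among those higher in 4 of 4 pigs at a mean of at least 1 CPM, FOSB and FOS. FOS was at 85.5, 223.7, 26.7 and 111 CPM in the infarct zone and 33.0, 48.3, 5.25 and 14.2 CPM in the remote zone, a difference of 2.22 ± 0.73. FOS was higher in 4 of 4 pigs, and its infarct level in pig 544 lay below the remote level of pigs 519 and 522. EGR1 gave 189, 313.5, 85.3 and 130.8 CPM against 55.1, 114.6, 38.0 and 30.6 CPM, a difference of 1.62 ± 0.61. FOSB, a member of the FOS family, had a difference of 2.87 ± 1.19. Over all gene groups, 27 genes with a mean of at least 1 CPM exceeded 2-fold with 1 direction in 4 of 4 pigs, 24 of them higher and 3 lower. Of 22 genes of the list, 10 were higher in 4 of 4 pigs and 0 lower, with a median of 0.31 and pig medians of 0.30, 0.59, 0.23 and 0.38. In the PBS pigs the list medians were 1.63, 0.61 and -0.21, a range that held every rhAgrin pig. The 34 genes of the unfolded protein, heat shock and hypoxia responses had a median of 0.06.

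PTGS2, the inducible cyclooxygenase that makes prostaglandins, was named after its values were seen. It is 1 of the 143 genes (0.928%) whose infarct levels all lay above all remote levels. It stood at 1.02, 4.96, 1.51 and 2.10 CPM in the infarct zone and 0.630, 0.546, 0.515 and 0.568 CPM in the remote zone, a difference of 1.93 ± 0.57 with an unadjusted p of 0.00431. In the PBS pigs the PTGS2 difference was 2.67, and the treatments differed by -0.74 (edgeR adjusted p = 0.625). The list PTGS2 belongs to, 19 genes of neutrophils and inflammatory mediators, had the highest median of the immune lists at 0.60. Its medians in the PBS pigs were 1.46, 0.98 and -0.15. In the rhAgrin pigs 9 members were higher and 0 lower in 4 of 4. Several of those 9 were barely detected. IL6, an inflammatory cytokine, lay between 0.245 and 0.621 CPM in the infarct zone and between 0.0728 and 0.210 CPM in the remote zone, and S100A8 had at most 3 counts.

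The macrophage markers CD68, CD163 and C1QA had differences near 0, whereas most genes of the macrophage lists had small estimates above 0. CD68, a lysosomal protein of macrophages, stood at 8.78, 7.07, 12.2 and 18.0 CPM in the infarct zone and 8.66, 9.39, 12.2 and 12.5 CPM in the remote zone. Its difference was 0.04 ± 0.17 (95% interval -0.31 to 0.40), and without pig 548 it was -0.13. CD163, a scavenger receptor of resident macrophages, had a difference of 0.02 ± 0.18 and the complement gene C1QA one of 0.00 ± 0.28, each higher in 2 of 4 pigs. SPP1 encodes osteopontin, made by macrophages of injured tissue. It gave 5.14, 23.7, 3.92 and 17.2 CPM in the infarct zone and 5.21, 3.57, 5.25 and 15 CPM in the remote zone. Only pig 522 showed a wide gap in SPP1, and the difference was 0.59 ± 0.66. The study listed CD63 and APP among potential receptors of TIMP1, and took its result with a TIMP1 fragment to exclude signalling through them. CD63 and APP had differences of 0.10 ± 0.11 and -0.14 ± 0.12. The 21 general macrophage genes had a median of 0.11 (2 higher, 1 lower in 4 of 4) and the 15 resident macrophage genes 0.06 (1 and 0). The 24 genes of lipid-associated and scar macrophages had a median of 0.11 (3 and 2). Estimates lay above 0 for 18 of the 21, 12 of the 15 and 17 of the 24 genes. TREM2, a lipid receptor of macrophages, had a difference of 0.80 ± 0.32 and was higher in 3 of 4 pigs. Interferon response genes were lower more often than higher, with 9 of 31 lower and 2 higher in 4 of 4 pigs and a median of -0.14. The 27 T and NK cell genes had a median of 0.16 (3 higher, 4 lower in 4 of 4) and the 18 B and plasma cell genes 0.11 (3 and 1). Genes of MHC class II and dendritic cells, 15 in number, had a median of 0.25, with 5 higher (33.3%) and 1 lower in 4 of 4 pigs. The 15 complement genes had a median of 0.23, with 6 higher (40%, against 8.22% of all genes) and 1 lower.

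Cardiomyocyte genes stood at similar levels in both zones. MYH7 gave 34090, 36530, 36050 and 29940 CPM in the infarct zone and 37130, 34240, 35340 and 33760 CPM in the remote zone, a difference of -0.04 ± 0.36. The 95% interval of MYH7 ran from -0.81 to 0.73, so a 2-fold loss lay outside it. ATP2A2, the calcium pump that refills the sarcoplasmic reticulum between beats, gave 3415, 2181, 2543 and 2238 CPM against 2837, 2591, 3354 and 3035 CPM. ATP2A2 was higher in the infarct zone of pig 519 and lower in the other 3 pigs, with a difference of -0.21 ± 0.26. RYR2, the release channel of the same calcium store, gave 1702, 1273, 1078 and 841 CPM in the infarct zone against 1532, 1341, 1581 and 1328 CPM in the remote zone, with the same pattern over the pigs and a difference of -0.28 ± 0.36. Of 36 sarcomere genes, 0 were higher and 1 lower in 4 of 4 pigs, with a median of -0.04, which was 0.04 with library totals alone. The 34 calcium handling and excitation genes had a median of -0.15 with 4 lower in 4 of 4 pigs. Of 27 cardiac transcription factors, 6 were lower in 4 of 4 pigs and 0 higher, namely TBX3, HEY2, HAND1 and the oestrogen-related receptors ESRRA, ESRRB and ESRRG, the last 3 known as regulators of energy metabolism.

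NPPB, the natriuretic peptide gene that cardiomyocytes raise under wall stress, varied widely between animals. It stood at 28.0, 131, 168 and 26.6 CPM in the infarct zone and 433, 22.3, 11.5 and 38.7 CPM in the remote zone. Pig 519 had its highest NPPB level in the remote zone, pigs 522 and 544 in the infarct zone, and the difference of 0.74 ± 1.53 has an interval from -2.57 to 4.04. The 17 genes of the fetal and stress programme had pig medians of -0.88, 0.69, 0.43 and -0.17, positive in 2 pigs and negative in 2.

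Energy metabolism lists had small negative medians. The 33 genes of fatty acid uptake and oxidation had a median of -0.11, with 8 lower and 0 higher in 4 of 4 pigs, among them the fatty acid transporter CD36 at -0.18 and the binding protein FABP3 at -0.23. The 40 nuclear-encoded genes of oxidative phosphorylation had a median of -0.09 and the 30 glycolysis genes -0.10. The 13 genes encoded in mitochondrial DNA had pig medians of 0.15, -0.31, -0.22 and -0.45. As a share of each library, mitochondrially encoded counts were 34.5%, 28.1%, 23.8% and 18.1% in the infarct zone and 32.0%, 32.7%, 26.5% and 23.2% in the remote zone. The infarct share was lower in 3 of 4 pigs, by a mean of -2.48 ± 3.43 percentage points (SD over 4 pigs), with an exact two-sided sign-flip permutation p of 0.25, where 0.13 is the smallest that 4 pairs allow. Pig 548, with the widest gap in this share, also had the highest collagen median of 0.62, and the part of the mitochondrial share in the matrix values was not tested.

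**Figure D3:**
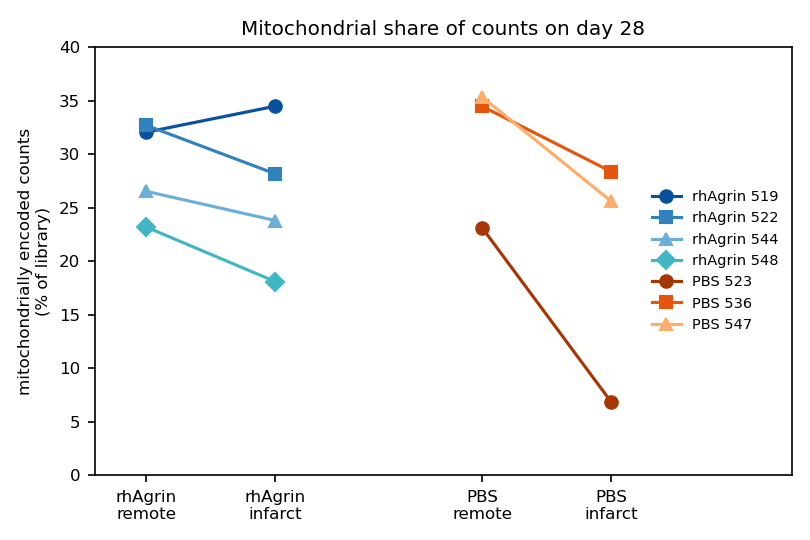
Mitochondrially encoded counts as a percent of all counts in each library at day 28, with a line joining the zones of each pig. The rhAgrin infarct zones lie between 18.1% and 34.5%, and the infarct zone of PBS pig 523 lies at 6.83%.

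No gene of the agrin pathway passed the test. AGRN, the pig's own agrin gene, gave 74.9, 74.2, 71.9 and 64.0 CPM in the infarct zone and 81.6, 86.6, 79.3 and 68.4 CPM in the remote zone. AGRN was lower in 4 of 4 pigs by a small amount, -0.15 ± 0.16, and a pig transcript does not report the human protein that was given. DAG1, the gene for dystroglycan, had a difference of -0.11 ± 0.16 and YAP1 one of -0.02 ± 0.12. Of the YAP partners, TEAD1 gave 73.1, 57.5, 43.3 and 31.8 CPM against 75.8, 65.4, 80.0 and 76.7 CPM. TEAD1 was lower in 4 of 4 pigs, hardly so in pig 519 and most in pig 548, with a difference of -0.60 ± 0.21 and an unadjusted p of 0.0128. Of 21 genes of agrin, the dystroglycan complex and its receptors, 1 was higher and 1 lower in 4 of 4 pigs, with a median of -0.07, or 0.00 with library totals alone. Of 28 YAP and TEAD genes and targets, 0 were higher and 2 lower (TEAD1 and F3), with a median of -0.12.

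Citing other work, the study states that agrin appears to reduce fibrosis through a regenerative senescence of cardiac fibroblasts. The 14 tested genes of senescence and cell cycle inhibitors had a median zone difference of -0.03, with 0 higher and 1 lower in 4 of 4 pigs. For rhAgrin minus PBS the list median was -0.23, against -0.007 for all genes. For day 28 minus day 3 it was -0.49, against -0.072. These values come from whole tissue, not from fibroblasts alone, and the mechanism was not tested. CCN2 and ANKRD1 are widely used as readouts of YAP and TEAD activity. Their upstream sequences are shown because agrin is known to release YAP in the newborn mouse heart. Each is the 250 bases before the RefSeq gene start on Sscrofa11.1, printed 5′ to 3′ on the gene's strand, at chr1:31674148-31674397 (plus strand) for CCN2 and chr14:102612858-102613107 (minus strand) for ANKRD1. Capitals mark GGAATG, the letters commonly bound by TEAD factors, searched on both strands.
CCN2: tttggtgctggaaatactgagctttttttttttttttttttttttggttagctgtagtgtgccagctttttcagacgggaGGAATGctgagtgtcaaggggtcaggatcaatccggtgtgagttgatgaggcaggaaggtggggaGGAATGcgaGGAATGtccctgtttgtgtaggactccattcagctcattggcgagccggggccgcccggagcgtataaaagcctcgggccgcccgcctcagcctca
ANKRD1: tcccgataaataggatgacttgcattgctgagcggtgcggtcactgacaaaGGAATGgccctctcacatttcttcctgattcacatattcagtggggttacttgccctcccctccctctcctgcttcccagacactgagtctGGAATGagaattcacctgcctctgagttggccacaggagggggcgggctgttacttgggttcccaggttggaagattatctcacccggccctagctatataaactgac
The letters begin 170, 105 and 96 bases before the start of CCN2 and 199 and 108 bases before that of ANKRD1, each on the gene's strand. Of 19556 windows of the same length before protein-coding genes, 2007 (10.3%) held the letters on either strand, and a match is a description of the sequence, not a bound site. CCN2, a matricellular growth factor also induced by TGF-beta, stood at 52.0, 120.2, 43.0 and 46.9 CPM in the infarct zone and 107.6, 58.5, 41 and 52.6 CPM in the remote zone. It was higher in 2 pigs and lower in 2, with a difference of -0.03 ± 0.42. ANKRD1, a stress-induced repressor protein of the sarcomere, gave 1680, 4097, 2043 and 1557 CPM against 3865, 2744, 1740 and 2949 CPM. Pig 522 held the highest infarct level of both genes and pig 519 the highest remote level of both, and the ANKRD1 difference was -0.33 ± 0.55.

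None of the vessel genes passed the test. Of 36 endothelial genes, 10 were lower in 4 of 4 pigs and 2 higher, with a median of -0.14. HEY1, a Notch target of arterial endothelium, had a difference of -0.41 ± 0.15, and NOTCH1 one of -0.23 ± 0.10, both lower in 4 of 4 pigs. PECAM1, an adhesion protein of all endothelium, was lower in 3 of 4 pigs at -0.15 ± 0.16. Pericyte and smooth muscle genes, 20 in number, had a median of -0.01. Lists for cell types that a section could also hold had medians of 0.13 (15 adipocyte genes), 0.21 (13 Schwann cell and nerve genes) and 0.17 (17 endocardial and Purkinje genes). ADIPOQ, the fat cell hormone adiponectin, ranged from 2.46 to 28.3 CPM in the infarct zone and from 1.08 to 21.7 CPM in the remote zone, without a common direction. The 42 cell cycle genes had a median of -0.05, with 3 higher and 2 lower in 4 of 4 pigs.

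**Figure D4:**
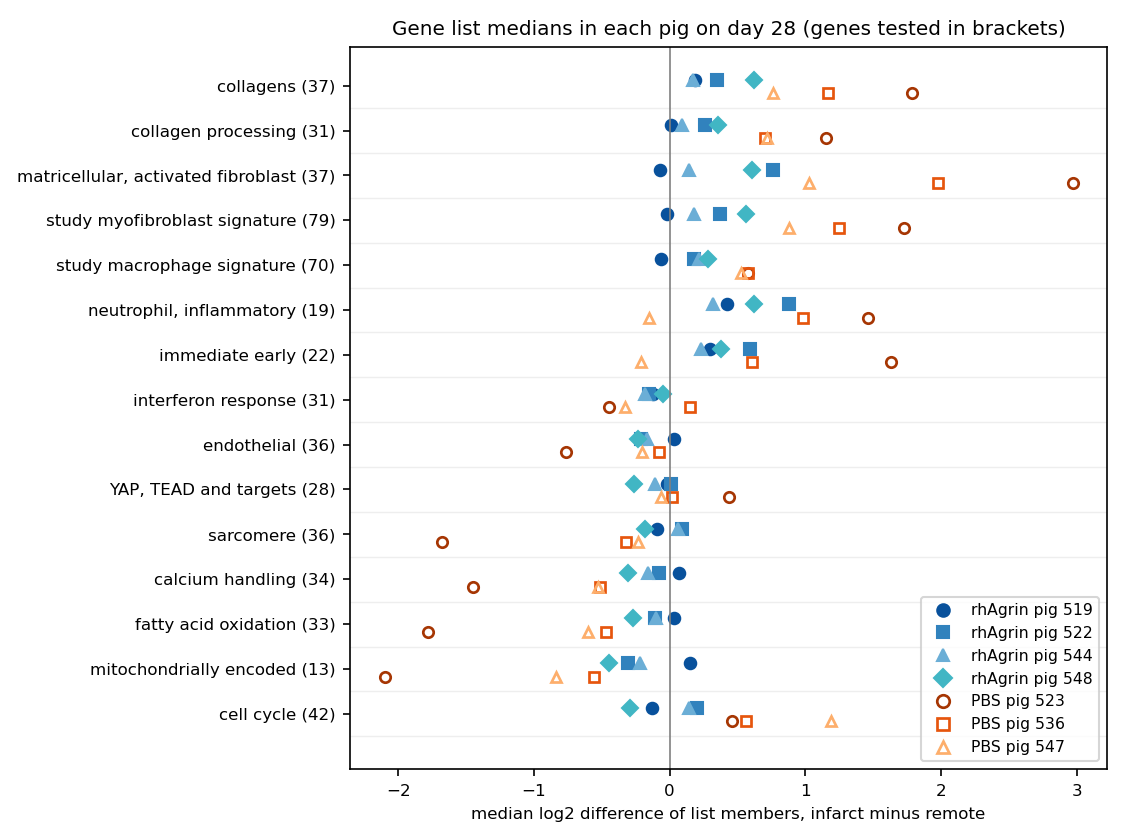
Median log2 difference (infarct minus remote) of each gene list in each pig at day 28, with the number of genes tested in brackets. The collagen list lies at 0.17 to 0.62 in the rhAgrin pigs and at 0.76 to 1.79 in the PBS pigs, and sarcomere medians lie near 0 in the rhAgrin pigs.

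The genes called in the PBS infarct zone were read in the rhAgrin pigs, which are other animals. The 860 genes called higher in the PBS infarct zone had a median difference of 1.48 there and of 0.34 in the rhAgrin pigs, with pig medians of -0.01, 0.47, 0.23 and 0.46. Of them, 260 (30.2%, against 8.22% of all genes) were higher in 4 of 4 rhAgrin pigs and 12 (1.4%) lower in 4 of 4. The 347 genes called lower had a median of -1.17 in the PBS pigs and -0.14 in the rhAgrin pigs, with 50 (14.4%, against 9.82%) lower in 4 of 4. The medians of pigs 522, 544 and 548 had the sign of the PBS pigs at a smaller size, while the medians of pig 519 were -0.01 for the first set and 0.15 for the other. Both sets were chosen for a large difference in the PBS pigs, which by itself favours a smaller size in other animals. The signatures that the study applied to its pig samples were modified from mouse single-cell data, and were used here with earlier results of these data known. The myofibroblast signature (79 genes tested) had pig medians of -0.02, 0.37, 0.18 and 0.56 against 1.73, 1.25 and 0.88 in the PBS pigs. Of its genes, 28 (35.4%) were higher and 0 lower in 4 of 4 rhAgrin pigs, and 72 had an estimate above 0. The macrophage signature (70 genes tested) had -0.06, 0.18, 0.22 and 0.28 against 0.58, 0.58 and 0.53. Of the macrophage signature genes, 16 (22.9%) were higher and 4 (5.71%) lower in 4 of 4 rhAgrin pigs, and 57 had an estimate above 0.

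The difference between treatments was then tested itself, as rhAgrin minus PBS in the zone difference at day 28. It called 75 genes lower (0.487%) and 0 higher (0%), with 3332 genes at an unadjusted p under 0.05. The count, and whether any gene was called higher, depended on the processing. DESeq2 called 324 genes lower and 85 higher, library totals alone gave 579 lower and 6 higher, the libraries of both day 28 groups alone gave 4 lower, and the fit without the pig block gave 1 lower. Over these 75 genes, which the contrast chose, the median zone difference was 0.24 in the rhAgrin pigs and 1.68 in the PBS pigs, and 15 of them belong to the myofibroblast signature. GXYLT2, a xylosyltransferase that acts on Notch receptors, was named after its values were seen, for the smallest adjusted p (0.00135). It stood at 11.6, 13.1, 14.4 and 26.3 CPM in the infarct zone and 9.88, 10.6, 12.7 and 17.3 CPM in the remote zone of the rhAgrin pigs. In the PBS pigs GXYLT2 was at 95.2, 31.6 and 35.5 CPM against 24.7, 8.12 and 6.36 CPM, and the treatments differed by -1.78 ± 0.18. All 3 PBS infarct levels lay above all 4 rhAgrin infarct levels.

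Among the calls were 4 of 37 collagens and 5 of 37 matricellular and activated fibroblast genes. FN1 differed by -2.26 ± 0.41 (adjusted p = 0.0319), with PBS infarct levels of 3714, 1157 and 959 CPM against PBS remote levels of 283, 184 and 263 CPM. CTHRC1 differed by -3.14 ± 0.44 (adjusted p = 0.0133), with 147, 44.5 and 34.4 CPM in the PBS infarct zone against 14.1, 2.94 and 2.48 CPM. Its lowest PBS infarct level was above the highest rhAgrin one of 12.3 CPM. ADAM12, a metalloprotease of mesenchymal cells, differed by -3.55 ± 0.50, COL9A3 by -3.96 ± 0.66 and COL24A1, a minor fibrillar collagen, by -3.54 ± 0.73. COL5A2, a chain that joins type I fibrils, differed by -1.47 ± 0.27, and PTK7 by -1.50 ± 0.19. The transcription factor LMX1B (-3.69 ± 0.62) and the autophagy gene MAP1LC3C (-5.48 ± 0.84) rest on few counts in the rhAgrin pigs. MAP1LC3C lay between 0.107 and 0.364 CPM there and between 2.11 and 3.9 CPM in the PBS infarct zone, so the size of its fitted difference depends on the prior count.

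Other scar genes with a wide gap did not pass. COL1A1 differed by -1.46 ± 0.48 (adjusted p = 0.109), COL3A1 by -1.31 ± 0.29 (0.0523) and POSTN by -2.26 ± 0.50 (0.0523). TREM2, a lipid receptor of macrophages, did pass at -2.36 ± 0.47 (adjusted p = 0.04), whereas CD68 missed the threshold at -1.16 ± 0.25 (0.0502). Differences of MYH7 (0.84 ± 0.56) and ATP2A2 (0.97 ± 0.40) between treatments also missed it. The count of calls depended on single pigs. All 75 genes kept their direction under every alternative tried, but this contrast chose them and the alternatives reuse largely the same libraries. Their constant direction is therefore no separate support. Leaving out pig 519, 544 or 523 left 4 calls, pig 536 left 3, pig 522 left 15, pig 548 left 25, whereas without PBS pig 547 there were 349 and without day 3 pig 570 there were 116.

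**Figure D5:**
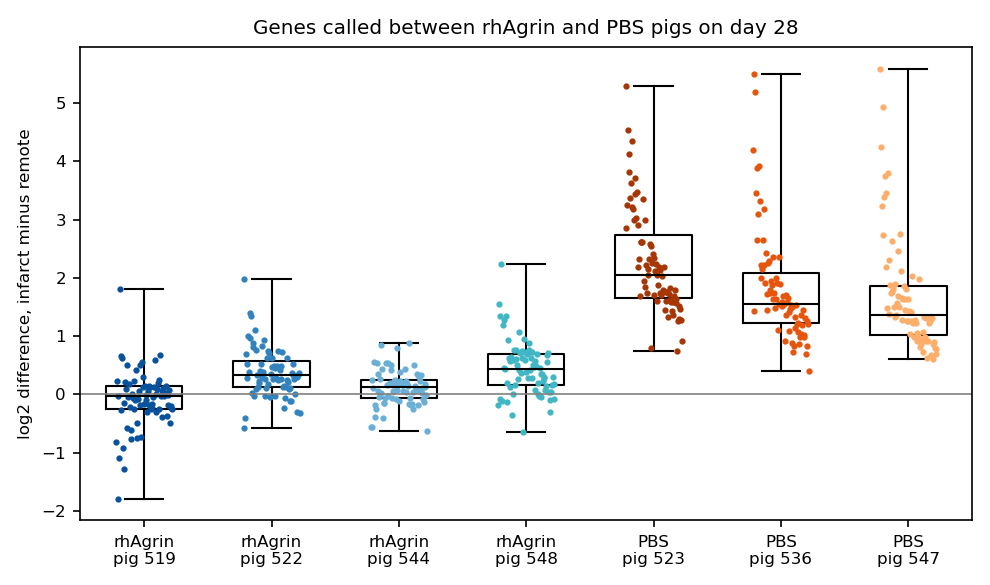
Log2 difference (infarct minus remote) of the genes called between treatments, in each rhAgrin and PBS pig at day 28. The medians are -0.03, 0.33, 0.12 and 0.43 in the rhAgrin pigs and 2.05, 1.55 and 1.36 in the PBS pigs.

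Against day 3 under the same treatment, the zone difference at day 28 was higher for 2314 genes (15%) and lower for 2707 (17.6%). With library totals alone, which moved the median of all genes by -0.63, these were 1271 and 5037. The animals of the days differ, so day and animal cannot be told apart beyond the spread within each group. Most members of the muscle and mitochondrial lists were called higher, namely 30 of 36 sarcomere genes, 27 of 34 calcium handling genes, 38 of 40 nuclear-encoded oxidative phosphorylation genes and 13 of 13 mitochondrially encoded genes. MYH7 was higher by 2.75 and ATP2A2 by 3.14. On the lower side were 38 of 42 cell cycle genes, 20 of 37 matricellular genes, 14 of 37 collagens and 16 of 21 general macrophage genes. The difference between days was -4.42 for CD68, -8.76 for SPP1, -4.13 for FN1 and -3.61 for TIMP1. Of 22 immediate early genes, 4 were called higher (JUN, KLF4, IER3 and NR4A2) and 3 lower (FOSL1, FOSL2 and JUNB). FOS, at 0.26 (adjusted p = 0.846), and EGR1, at 0.57 (adjusted p = 0.594), did not pass. Of the 2975 genes called higher at day 3, whose median was 1.92 there, the day 28 median was 0.10, with 527 (17.7%) higher in 4 of 4 pigs. The 2396 genes called lower at day 3 had medians of -1.78 at day 3 and -0.08 at day 28. Both sets were chosen for a large difference at day 3, which by itself favours a smaller size at day 28.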

How the data were processed

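RNA was sequenced from the infarct and remote zones of 14 pigs in 28 libraries. The authors deposited raw counts per gene, made per the labels and processing notes with bcl2fastq 2.20.0.422, cutadapt, STAR 2.7.3a, Picard 2.22.4 for removal of duplicates by molecular identifier, HTSeq and DESeq2 1.26.0. Removal of duplicates makes a count nearer to a molecule, and polyadenylated selection leaves other RNA out. The deposited normalized tables and the authors' comparisons were not used, and 0 columns were left without a sample. The infarct column of day 3 pig 577 bears an unexplained letter B, and was assigned because the other column of that pig is its remote zone. Of 17603 genes, 13009 had a symbol in the files and 661 in a reference table.

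Counts were fitted in R 4.3.3 with edgeR 4.0.16 (limma 3.58.1), quasi-likelihood with robust spread, TMM scaling, the edgeR filter on low counts by group, 28 libraries, pig as a block and 1 infarct term for each treatment and day (10 residual degrees of freedom). Calls needed an adjusted p (Benjamini-Hochberg over 15409 genes) under 0.05, a fold of at least 2 and a highest count over 30. A pig's own log2 difference used a prior count of 2. Same-numbered samples came from 1 animal, and in the 4 rhAgrin pigs at day 28 the deviations of the zones from their group means correlated at 0.402 to 0.575, against at most 0.209 with another pig. The best correlation between replicates was 0.9863, so no library was counted as a copy. Pigs are separate animals, but the labels do not say how many sections each library came from.

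Members and all 49 gene lists (1322 symbols, 1087 tested) were chosen with earlier results of these data known. Named genes were the called genes, up to 3 genes of highest level per list, a set of scar, macrophage, muscle and agrin genes, the 5 largest called differences in each direction in the 2 other contrasts and, added later, the 12 smallest p-values and genes past a fold of 2. Lists were described by counts and medians, with no test. Alternatives were other scalings, no filter, DESeq2 1.42.0, no block, fewer libraries and each pig left out, the PBS and day 3 pigs having been added after seeing the data. Windows before gene starts came from RefSeq on Sscrofa11.1.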

Additional observations from a re-analysis of the deposited data

Results flagged for a closer look

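Among 92 sets of 4 rhAgrin pigs examined at day 28 (genes, list medians and library measures), 6 held 1 pig whose gap to the nearest other pig exceeded Dixon's 95% critical share of the whole range, where chance gives about 1 in 20. In 5 of the 6 that pig was 519. Its log2 difference of TIMP1 was -0.0953, and its list medians were 0.09 for glucose uptake and glycolysis, 0.05 for creatine, citrate cycle and branched-chain use, 0.41 for lymphatic genes and -0.08 for unfolded protein, heat shock and hypoxia genes. The remaining one was ROR2 in pig 522, at 2.72.

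The zone difference at day 28 differed between rhAgrin and PBS pigs for 75 genes by the interaction term, with the widest named gaps at MAP1LC3C (-5.48), COL9A3 (-3.96), LMX1B (-3.69), ADAM12 (-3.55) and COL24A1 (-3.54). It differed between day 28 and day 3 in rhAgrin pigs for 5021 genes. The widest on the higher side were DLK1 (5.74), MYOM2 (5.66), DHRS7C (5.65), DNAJC5G (5.59) and FSHB (5.37), and on the lower side MCOLN3 (-10.8), SIGLEC15 (-9.3), SPP1 (-8.76), ACP3 (-8.52) and DCSTAMP (-8.37). MCOLN3, SIGLEC15, ACP3 and DCSTAMP were at or under 3 counts in day 28 libraries, so these fitted values depend on the prior count and are no bound.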

How the results depend on the processing

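Under every alternative, 0 genes were called between the zones of the rhAgrin pigs at day 28. Genes at an unadjusted p under 0.05 were 225 to 848 when 1 of these pigs was left out and 179 without the replicate block. They were 1340 of 13893 tested with the 8 libraries alone and 536 by DESeq2. Of 3162 pairs of a named gene and an alternative, 93 changed sign, over 49 of 167 genes, and 4 passed an adjusted p (DESeq2: PTK7, NR2F1, SRPX and SPON1). Of 930 list medians, 19 moved by more than their SD over pigs.

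For rhAgrin minus PBS, genes called lower (75) were 579 with library totals alone, which moved the median of all genes by -0.26, 324 by DESeq2, 4 with only the libraries compared and 1 without the replicate block that pairs the zones of a pig. They ran from 3 to 305 with a pig left out. Genes called higher (0) were 8 at the adjusted p alone, 1 with DESeq2 size factors, 6 with library totals, 85 by DESeq2 and 0 to 44 with a pig left out. For day 28 minus day 3, genes called higher (2314) and lower (2707) were 4091 and 4588 at the adjusted p alone, 1271 and 5037 with library totals alone, and 2211 to 2421 and 2581 to 2728 with a pig left out. The causes were not tested. With 4 pigs and a spread shared by all groups, the 95% interval reached past 2-fold for 19.7% of genes. Of the 310 estimates past 2-fold, 263 had a mean under 1 CPM.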
